A study of Homo sapiens with 6 samples.

Results

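Human chromosome 21 genes were examined in A431 cells with and without Desmoglein-2. The members are the rows of the count table that carry chromosome 21 and have at least 10 counts in each of the 6 libraries, and they number 106 of the 21462 genes in the table. The table lists 261 genes on this chromosome. Another 10 were set aside by name, among them interferon response, collagen and sterol genes, and 145 were below the count minimum, 78 of them with no count in any library. The members were proposed because their RNA was known to be shifted between the conditions, so the values of the members in this contrast are given as descriptions and carry no test.

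A431 is a human epidermoid carcinoma line with keratinocyte features. The A431CT libraries, labelled WT, are from control A431 cells and the Dsg2KO libraries are from A431 cells in which the gene for the desmosomal cadherin Desmoglein-2 was edited with CRISPR/Cas9. Both were received by the study as edited and control lines, were grown in the same medium with serum, and had poly(A) RNA sequenced from 3 replicates each. Whether the knockout is 1 clone or a pool is not given in the sources used here. All 3 Dsg2KO libraries carry the same edited line, so the loss of Desmoglein-2 and any other difference between the lines cannot be told apart.

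Chromosome 21 is the smallest human autosome, and its long arm carries nearly all of its protein-coding genes. An additional copy causes Down syndrome, in which RNA from many of its genes is raised. Its genes have no common pathway and encode purine and amino acid enzymes, splicing and ribosome biogenesis factors, mitochondrial proteins, receptors, kinases and transcription factors. Only RNA was counted in these libraries. The number of copies of the chromosome was not tested.

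The libraries held between 12845719 and 16255692 counts, and the counts in replicates of one condition differed by more than counting error. Levels are given as CPM, the read count of a gene scaled to the library total after TMM adjustment, and differences as log2 fold changes of Dsg2KO against A431CT cells with their standard error (SE) from the edgeR fit to 12857 tested genes. DSG2 was at 323 ± 6.08 CPM (SD, n = 3) in A431CT and 51.9 ± 2.88 CPM (SD, n = 3) in Dsg2KO cells, a log2 fold change of -2.64 (SE 0.05, edgeR adjusted p = 1.29e-14). Of 9 keratinocyte markers, EGFR lay between 8185 and 9361 CPM, KRT5 between 554 and 644 CPM, and KRT14 was near 0 with at most 0.155 CPM, so the basal keratinocyte pair KRT5 and KRT14 was present only in part. The summed level of the 9 markers was 10748 to 11415 CPM in A431CT and 11540 to 11883 CPM in Dsg2KO libraries. Most of this sum was EGFR, and single markers went both ways. EGFR, KRT18 (552 to 585 CPM in A431CT, 697 to 743 CPM in Dsg2KO) and CDH1 were higher in all Dsg2KO libraries. SFN (775 to 805 CPM in A431CT, 559 to 601 CPM in Dsg2KO), KRT5 (610 to 644 and 554 to 587 CPM) and KRT6A were lower. The ranges of KRT17 and TP63 overlapped. Markers of other cells were low except CD68, which was between 236 and 240 CPM in A431CT and between 148 and 161 CPM in Dsg2KO libraries. CD3E, MS4A1 and HBB had no count. The summed level of 2 endothelial markers was 7.13 to 10.2 CPM in A431CT and 13.8 to 14.2 CPM in Dsg2KO libraries. That of 3 fibroblast and mural markers was at most 0.368 CPM. The part of these markers in the chromosome 21 values was not tested.

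The first question was how evenly the members were shifted. The median log2 fold change of the 106 members was 0.39, a 1.31-fold higher level in Dsg2KO cells, with quartiles of 0.22 and 0.50. Of the members, 94 (88.7%) were above 0 and 12 were below. Over all tested genes the median was -0.0048 and 49.1% were above 0. The range among members ran from -0.50 for CBSL to 1.47 for ICOSLG, and 64 members lay within 0.2 of the median. The values describe RNA in bulk libraries, in which fewer cells with a transcript and less RNA per cell cannot be told apart.

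Among members, 25 had an edgeR adjusted p-value under 0.05 together with a log2 fold change of at least 0.5 in size, all of them higher in Dsg2KO cells. Of all tested genes, 6.03% were called in either direction and 2.99% higher. With the adjusted p-value alone, 72 members were higher and 5 lower, against 14.3% higher and 15.3% lower (29.6% in all) among all tested genes. The 3 Dsg2KO libraries lay above all 3 A431CT libraries for 77 members and below them for 6, against 21.2% and 21.4% of all tested genes. Because the rule for members came from this contrast, nothing is read from these counts.

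The shift was alike in the libraries. Relative to the A431CT mean, the median of the 106 members was 0.38, 0.39 and 0.40 on the log2 scale in Dsg2KO libraries 1, 2 and 3. In the A431CT libraries it was 0.0007, 0.0026 and 0.0008. The members took 0.548%, 0.552% and 0.550% of the counts in A431CT libraries and 0.711%, 0.712% and 0.717% in Dsg2KO libraries, so the conditions did not overlap. On the other chromosomes the median of the tested genes lay between -0.15 on chromosome 13 and 0.06 on chromosome 8.

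**Figure D1:**
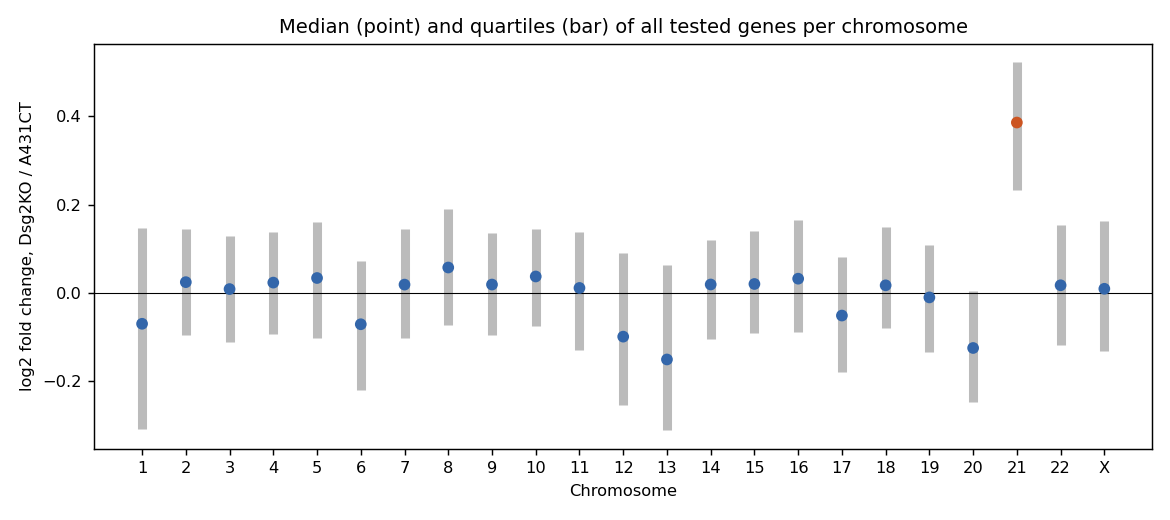
The points are the median log2 fold change (Dsg2KO against A431CT) of the tested genes of each chromosome, and the bars join the lower and upper quartiles. Chromosome 21 (121 tested genes, the members among them), in orange, stands at 0.39 with a lower quartile of 0.23, above the medians of all other chromosomes shown, which reach at most 0.06.

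The members were then ordered along the chromosome. Of the 106, 96 were placed by symbol with GENCODE 44 on GRCh38, between 14.4 and 46.7 Mb, and 10 were not placed. The 10 placed members nearest the centromere, HSPA13 to APP, lay lower as a group. Their median log2 fold change was -0.06, 4 were above 0 and none was called higher. A gap of 2.70 Mb without a member follows APP, in which ADAMTS1, ADAMTS5 and CYYR1 had at most 3 counts in any library. The 86 placed members after the gap, from N6AMT1 onwards, had a median of 0.41, 81 of them were above 0, and 23 were called higher. Of all tested genes, 49.1% were above 0 and 2.99% were called higher. This division was chosen after the values were seen and is a description.

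In Dsg2KO libraries 1, 2 and 3 the median of the 10 members before the gap was -0.04, -0.09 and -0.05 relative to the A431CT mean, and in A431CT libraries it was -0.0046, 0.05 and -0.04. Their share of counts was 0.0675%, 0.0714% and 0.0666% in A431CT and 0.0684%, 0.0669% and 0.0683% in Dsg2KO libraries, which overlap. After the gap the Dsg2KO medians were 0.41, 0.40 and 0.43, and the share of counts was 0.450%, 0.449% and 0.452% in A431CT against 0.604%, 0.606% and 0.609% in Dsg2KO libraries. In 4 groups of 24 placed members in order, the medians were 0.28, 0.42, 0.34 and 0.44, and in the last group all 24 members were above 0.

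**Figure D2:**
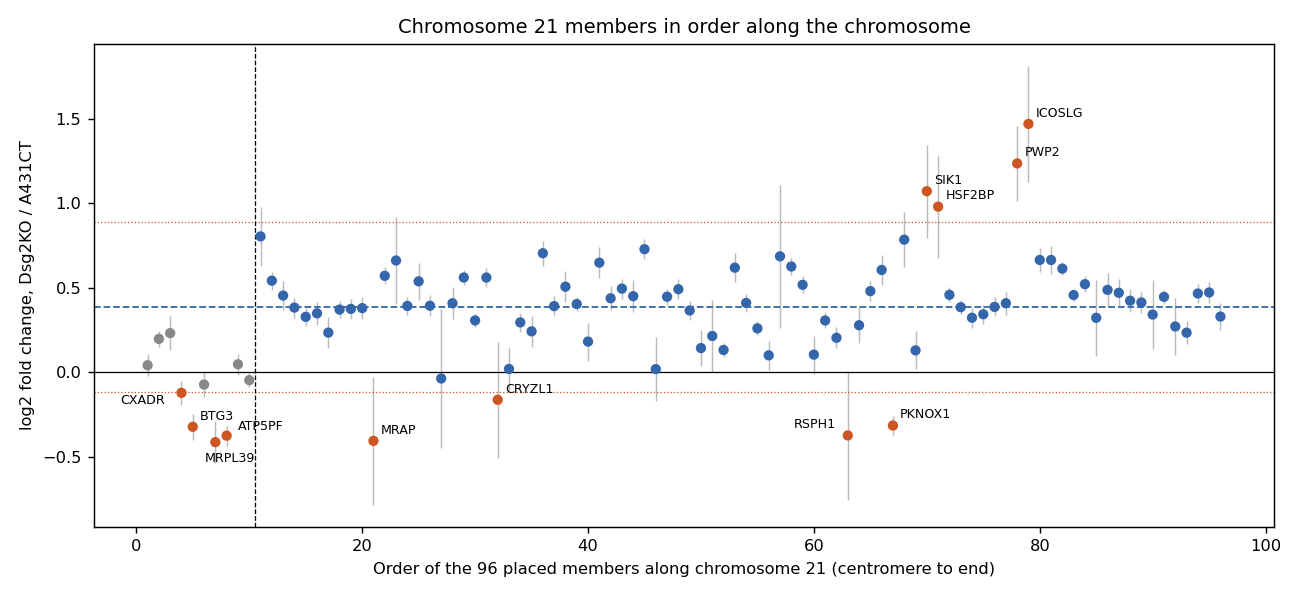
Each point is a placed member in its order from the centromere to the end of chromosome 21, at its log2 fold change (Dsg2KO against A431CT) with its standard error as a bar. Grey points are before the gap (vertical dashed line), orange points lie at least 0.5 from the members' median of 0.39 (horizontal dashed line), and dotted lines mark that distance. The 10 members on the left lie around 0, and most points to the right follow the median.

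**Figure D3:**
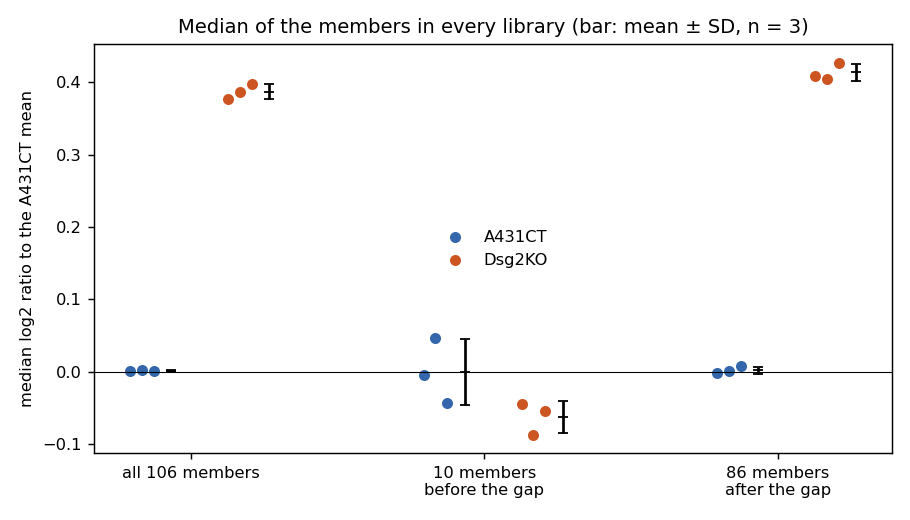
The points are the median log2 ratio of the members to the A431CT mean in every library, with the mean and SD of the 3 libraries beside them. Dsg2KO libraries stand at 0.38 to 0.40 for all members and 0.40 to 0.43 after the gap, but at -0.09 to -0.04 before it.

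The stretch before the gap held genes with very different functions. APP, the amyloid precursor protein, had 327, 352 and 323 CPM in A431CT and 329, 324 and 319 CPM in Dsg2KO libraries. These values overlap, and the log2 fold change was -0.05 (SE 0.04). BACE2, an aspartyl protease that cleaves APP and is encoded after the gap, had 79.7, 84.1 and 83.2 CPM in A431CT and 118, 131 and 132 CPM in Dsg2KO libraries, with a log2 fold change of 0.63 (SE 0.05). The 2 genes of the same pathway therefore stood on either side of the gap with different values. NRIP1, a nuclear receptor corepressor before the gap, had 89.4, 96.7 and 89.8 CPM against 104, 103 and 110 CPM, and its log2 fold change of 0.20 (SE 0.05) was the only one of the 10 whose Dsg2KO libraries all lay higher. USP25, a ubiquitin-specific protease, had the highest value of the 10, with 18.2, 21.9 and 18.1 CPM against 19.9, 24.7 and 23.7 CPM and a log2 fold change of 0.23 (SE 0.10). USP25 and NRIP1 lay within 0.2 of the median of all members, and 4 of the 10 were at least 0.5 from it. GABPA, an ETS transcription factor, was at 39.9, 42.6 and 43.5 CPM in A431CT and 41.5, 44.4 and 44.4 CPM in Dsg2KO libraries, with a log2 fold change of 0.05 (SE 0.06).

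Members that left the common shift were those at least 0.5 from the median, and there were 13. ICOSLG, PWP2, SIK1 and HSF2BP lay above it. CXADR, CRYZL1, PKNOX1, BTG3, RSPH1, ATP5PF, MRAP, MRPL39 and CBSL lay below it. Of the 13, 4 are before the gap, 4 have a near-identical copy on chromosome 21 or are named as one, and 4 others (HSF2BP, CRYZL1, RSPH1 and MRAP) had fewer than 100 counts in some library. PKNOX1 is the one that remains. Nearest the limit on the inside were C21orf91 with a log2 fold change of -0.07 and N6AMT1 with 0.80, and on the outside CXADR with -0.12 and HSF2BP with 0.98. With each library left out in turn, 9 of the 13 stayed at least 0.5 from the median in every fit. The exceptions were CXADR, CRYZL1, SIK1 and HSF2BP, whose log2 fold changes then ranged from -0.15 to -0.09, -0.46 to 0.11, 0.81 to 1.49 and 0.77 to 1.21.

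The promoters of the leaving members with at least 100 counts in every library and no copy are shown, because the data bear on their RNA level, with that of GABPA for its place beside ATP5PF. Each window holds 250 bases before and 50 after the start site in RefSeq on GRCh38.p14, 5′ to 3′ on the strand of the gene, and capitals mark the ETS core CCGGAA or its reverse complement. The windows are chr21:17612852-17613151 (minus strand), chr21:25607432-25607731 (minus), chr21:25735005-25735304 (minus), chr21:25734722-25735021 (plus) and chr21:42974312-42974611 (plus). CXADR, the other such member, was not matched.
BTG3: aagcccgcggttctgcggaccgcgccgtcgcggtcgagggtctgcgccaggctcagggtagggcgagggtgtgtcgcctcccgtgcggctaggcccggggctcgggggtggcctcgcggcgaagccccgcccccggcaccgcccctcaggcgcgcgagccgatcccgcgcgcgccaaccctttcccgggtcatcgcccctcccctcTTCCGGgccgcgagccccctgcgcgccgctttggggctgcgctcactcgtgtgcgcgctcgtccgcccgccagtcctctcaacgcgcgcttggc
MRPL39: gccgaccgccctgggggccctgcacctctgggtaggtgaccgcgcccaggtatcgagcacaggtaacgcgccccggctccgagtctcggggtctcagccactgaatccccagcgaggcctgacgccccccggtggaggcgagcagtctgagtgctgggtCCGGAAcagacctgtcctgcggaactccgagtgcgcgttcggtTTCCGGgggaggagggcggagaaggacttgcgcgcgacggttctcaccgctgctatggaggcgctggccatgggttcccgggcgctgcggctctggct
ATP5PF: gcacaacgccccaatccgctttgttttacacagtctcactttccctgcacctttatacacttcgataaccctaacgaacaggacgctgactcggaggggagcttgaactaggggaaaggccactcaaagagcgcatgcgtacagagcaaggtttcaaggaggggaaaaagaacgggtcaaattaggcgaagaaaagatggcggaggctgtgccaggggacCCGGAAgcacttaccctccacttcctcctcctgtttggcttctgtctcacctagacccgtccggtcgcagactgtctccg
GABPA: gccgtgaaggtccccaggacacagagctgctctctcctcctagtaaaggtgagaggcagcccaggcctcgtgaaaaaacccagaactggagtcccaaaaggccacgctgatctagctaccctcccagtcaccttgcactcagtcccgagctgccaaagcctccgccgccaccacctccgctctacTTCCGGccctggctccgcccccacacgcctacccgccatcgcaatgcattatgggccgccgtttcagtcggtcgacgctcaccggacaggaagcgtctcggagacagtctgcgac
PKNOX1: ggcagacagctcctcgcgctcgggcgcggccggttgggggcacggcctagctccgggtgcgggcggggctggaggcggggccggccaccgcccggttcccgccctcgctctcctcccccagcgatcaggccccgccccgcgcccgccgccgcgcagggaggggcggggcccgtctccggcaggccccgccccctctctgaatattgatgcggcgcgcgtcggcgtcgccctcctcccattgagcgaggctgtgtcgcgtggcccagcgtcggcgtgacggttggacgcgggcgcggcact

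The start sites of ATP5PF and GABPA lie 82 bases apart on opposite strands, with that of GABPA at the lower position. Each gene therefore runs across the start of the other, and their windows overlap at their downstream ends. MRPL39 has the core on each strand, BTG3, ATP5PF and GABPA have it once, and PKNOX1 has no match in this window. Over the 77 members with a window, 30 (39.0%) held the core on either strand, against 17.2% of 35116 windows of all genes and 29.98% of 9951 windows of tested genes on other chromosomes. CFAP298 and C21orf59-TCP10L had identical window values, as did GET1 with WRB-SH3BGR and MRPS6 with SLC5A3. The first of these pairs and the second held the core and were counted for each gene. Windows shared by genes were not removed in any set. The TATA box TATAAA, on either strand, was in 6 (7.79%) of the member windows, 11.5% of all windows and 5.67% of those of tested genes. The observed over expected CpG ratio was above 0.6 in 67 (87.0%) member windows and in 82.4% of the windows of tested genes elsewhere, and its median was 0.911 and 0.839. A match is a description and not a site.

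The limit of 0.5 takes no account of SE. ETS2 and HLCS, inside it, stood at -6.18 and 5.79 SE from the median of the members, a distance that was not tested. PKNOX1 is a TALE homeodomain transcription factor at chr21:42974510-43033931 on the plus strand. Among members after the gap with at least 100 counts in every library, PKNOX1 alone left the shift by that limit. It had 51.8, 48.4 and 50.5 CPM in A431CT libraries and 39.2, 40.8 and 41.1 CPM in Dsg2KO libraries. All Dsg2KO libraries lay below all A431CT libraries, and the log2 fold change was -0.31 (SE 0.06). Of the 70 members after the gap with at least 100 counts in every library, the other 69 were above 0, and in 62 of the 70 the Dsg2KO libraries all lay higher. Among all tested genes, 49.1% were above 0, and in 21.2% the Dsg2KO libraries all lay higher. NDUFV3 and WDR4, genes near PKNOX1 in the order, had log2 fold changes of 0.61 (SE 0.09) and 0.48 (SE 0.06). No annotated gene lies opposite PKNOX1.

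The other leavers with at least 100 counts and no copy lie before the gap. BTG3, an antiproliferative protein of the BTG/TOB family at chr21:17593653-17612945, had 29.0, 29.1 and 26.2 CPM in A431CT and 23.3, 21.8 and 22.4 CPM in Dsg2KO libraries. Its conditions did not overlap and its log2 fold change was -0.32 (SE 0.08). An antisense gene, BTG3-AS1, lies opposite, and whether the counting used strand is not given in the sources used here, so reads of the pair cannot be told apart. CXADR, a tight junction protein and virus receptor at chr21:17513043-17593579, had 27.1, 29.1 and 28.5 CPM against 26.8, 25.002 and 26.2 CPM, a log2 fold change of -0.12 (SE 0.07). The 2 conditions of CXADR lay close, and it left the median because it was not higher.

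ATP5PF, a peripheral stalk subunit of ATP synthase at chr21:25716503-25735673, had 64.9, 66.2 and 60.0 CPM in A431CT and 50.8, 46.9 and 49.9 CPM in Dsg2KO libraries. The Dsg2KO libraries were all lower, with a log2 fold change of -0.37 (SE 0.06). MRPL39, a protein of the large mitochondrial ribosomal subunit at chr21:25585656-25607517, had 12.1, 11.6 and 11.4 CPM against 9.66, 8.37 and 8.40 CPM and a log2 fold change of -0.41 (SE 0.12), again without overlap. ATP5PF and GABPA share a start region, as the windows above show, and had log2 fold changes of -0.37 and 0.05. The annotated gene of ATP5PF also runs into GABPA and JAM2 on the opposite strand. Of the 10 members before the gap, 4 had all Dsg2KO libraries below the A431CT libraries, and they were BTG3, CXADR, MRPL39 and ATP5PF. Among all tested genes the share with all Dsg2KO libraries below was 21.4%.

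**Figure D4:**
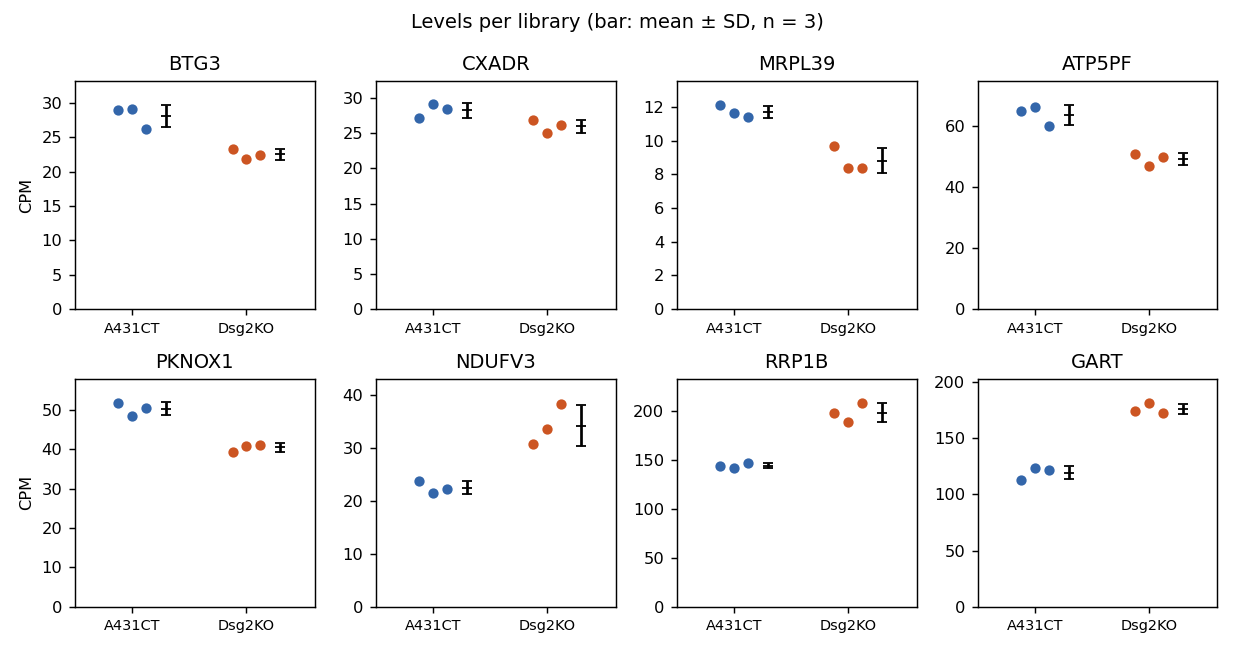
CPM in every library for 5 members that were lower in Dsg2KO cells (BTG3, CXADR, MRPL39, ATP5PF and PKNOX1) and 3 that were higher (NDUFV3, RRP1B and GART), with the mean and SD of 3 libraries beside the points. Each axis starts at 0, and in no panel do the conditions overlap, with PKNOX1 at 50.2 against 40.4 CPM and GART at 119 against 176 CPM. The genes shown were picked with their values known. Of all tested genes 42.6% had no overlap, and 23 of the 106 members did overlap.

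Leavers above the median had few counts, and all but HSF2BP have a near-identical copy. ICOSLG, the ligand of the T cell costimulator ICOS at chr21:44215382-44241446, had 20, 15 and 11 counts in A431CT and 66, 34 and 54 counts in Dsg2KO libraries, and a log2 fold change of 1.47 (SE 0.34). PWP2, a subunit of the small-subunit processome at chr21:44107373-44131181, had 32, 35 and 37 against 113, 107 and 76 counts (log2 fold change 1.24, SE 0.22). SIK1, a salt-inducible kinase at chr21:43414483-43427131, had 22, 36 and 57 against 74, 99 and 121 counts (log2 fold change 1.07, SE 0.28). HSF2BP, a meiotic recombination protein at chr21:43529186-43659488, had 18, 24 and 12 against 42, 37 and 50 counts (log2 fold change 0.98, SE 0.30). In all 4 the Dsg2KO libraries lay above the A431CT libraries, against 21.2% of all tested genes. The 4 were picked for their high values in this contrast, so nothing is read from this.

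The low leavers after the gap other than PKNOX1 also had few counts. MRAP, an accessory protein of melanocortin receptors at chr21:32291813-32314784, had 16, 20 and 21 counts in A431CT and 16, 10 and 26 in Dsg2KO libraries (log2 fold change -0.40, SE 0.38). RSPH1, a radial spoke protein of motile cilia at chr21:42472486-42496246, had 10, 18 and 15 against 14, 11 and 15 counts (log2 fold change -0.37, SE 0.38). CRYZL1, a quinone oxidoreductase-like protein at chr21:33589341-33643926, had 29, 20 and 28 against 15, 30 and 39 counts (log2 fold change -0.16, SE 0.34). Each lies opposite another annotated gene, URB1 for MRAP, SLC37A1 for RSPH1 and ITSN1 for CRYZL1. The conditions overlap in all 3. MRAP, RSPH1 and CRYZL1 stood at -2.09, -1.99 and -1.601 SE from the median of the members, a distance that was not tested.

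Copies of members on the same chromosome bear on several of these values. Transcripts of CBS, ICOSLG, PWP2, SIK1, U2AF1 and, over 52.0% of its length, TRAPPC10 match another place on chromosome 21 of GRCh38, between chr21:5022554-5040672 and chr21:6484623-6499202, with at least 99.8% identity. The table lists CBSL, SIK1B and U2AF1L5 beside CBS, SIK1 and U2AF1. Reads of such a pair could be split between the rows by the counting, so each of these rows is uncertain. CBS, which makes cystathionine from homocysteine, had 31.6, 33.9 and 17.2 CPM in A431CT and 44.9, 53.9 and 43.9 CPM in Dsg2KO libraries (log2 fold change 0.79, SE 0.16), while CBSL had 20.2, 18.2 and 28.7 CPM against 17.7, 12.3 and 17.5 CPM (log2 fold change -0.50, SE 0.16). The third A431CT library had the least on CBS and the most on CBSL.

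Summed, CBS with CBSL and U2AF1 with U2AF1L5 were both near the median of the members. CBS and CBSL together were at 49.9 ± 3.51 CPM in A431CT and 63.4 ± 2.54 CPM in Dsg2KO cells (SD, n = 3), a log2 ratio of 0.35. The share of the pair's counts on CBSL was 39.0%, 34.9% and 62.5% in A431CT and 28.3%, 18.6% and 28.6% in Dsg2KO libraries. U2AF1, the small subunit of the factor that binds 3′ splice sites, and U2AF1L5 together were at 40.2 ± 1.12 and 51.1 ± 1.06 CPM (SD, n = 3), a log2 ratio of 0.35, whereas U2AF1 alone had a log2 fold change of 0.13 (SE 0.11). SIK1 and SIK1B together were at 34.7 ± 2.92 and 55.1 ± 6.10 CPM (SD, n = 3), a log2 ratio of 0.67. SIK1B held 87.1% to 95.4% of that pair's counts and had a log2 fold change of 0.62 (SE 0.09) alone, so the sum lay nearer the median than SIK1 but not nearer than SIK1B. With the pairs summed, 11 members left the shift.

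The members nearest the median came from different functions, and 5 of those with the highest CPM are given as reference points. AGPAT3, an acyltransferase of phospholipid synthesis, had 131, 124 and 110 CPM in A431CT and 165, 154 and 159 CPM in Dsg2KO libraries. PDXK, the kinase that makes active vitamin B6, had 141, 138 and 138 against 181, 176 and 189 CPM. CFAP298, needed for motile cilia, RUNX1, a Runt-domain transcription factor, and SCAF4, which prevents early termination of transcription, were at 62.3, 81.8 and 65.7 CPM in A431CT and 81.8, 107 and 85.3 CPM in Dsg2KO cells as means. None of the 5 had overlapping conditions, against 42.6% of all tested genes without overlap, and their log2 fold changes were between 0.38 and 0.39.

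By role, the medians differed in size. For the counts in each role, 2.99% of all tested genes were called higher and 49.1% were above 0. The conditions did not overlap in 42.6% of all tested genes. Nothing is read from the counts by role, since the members came from this contrast. The 14 members of RNA processing and ribosome biogenesis had a median log2 fold change of 0.45, all above 0, and PWP2, N6AMT1 and URB1 were called higher. The group is broad, and N6AMT1 was placed in it though its product is given here only as a methyltransferase. N6AMT1, a methyltransferase that works with TRMT112 and the first member after the gap, had 4.09, 4.05 and 5.27 CPM in A431CT and 7.31, 8.50 and 7.60 CPM in Dsg2KO libraries (log2 fold change 0.80, SE 0.17). SON, a splicing cofactor of nuclear speckles, was at 418 ± 19.6 CPM in A431CT and 517 ± 11.6 CPM in Dsg2KO cells (SD, n = 3; log2 fold change 0.31, SE 0.04). RRP1B, a nucleolar rRNA processing protein, was at 144, 142 and 147 against 197, 188 and 208 CPM (0.46, SE 0.04). MCM3AP, the scaffold of the TREX-2 mRNA export complex, had a log2 fold change of 0.45 (SE 0.04). Its neighbour YBEY, whose start lies 45 bases away on the other strand, had 0.27 (SE 0.17).

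The 12 members of chromatin, replication and division also had a median of 0.45, with 4 called higher (HSF2BP, CFAP410, DONSON and SETD4) and none with overlapping conditions. The role groups are broad, and this one also holds CFAP298, the gene needed for motile cilia. DONSON, a replication fork protein, had 48.6, 54.2 and 51.1 CPM in A431CT and 75.6, 77.6 and 74.0 CPM in Dsg2KO libraries (log2 fold change 0.56, SE 0.06). HMGN1, a nucleosome-binding protein, was at 190 ± 8.20 against 228 ± 1.97 CPM (SD, n = 3; log2 fold change 0.26, SE 0.04), the smallest value of the group. PCNT, the pericentriolar scaffold of the centrosome, was at 58.7 ± 4.79 against 81.1 ± 1.22 CPM (0.47, SE 0.06). The 8 kinases, phosphatases and signalling members had a median of 0.53, and 5 were called higher (SIK1, RCAN1, DOP1B, SYNJ1 and RIPK4). This group is also broad, and DOP1B and C2CD2 were placed in it. DYRK1A, a dual-specificity kinase studied in Down syndrome, had 61.5, 65.4 and 69.4 CPM in A431CT and 85.8, 80.6 and 86.7 CPM in Dsg2KO libraries (0.37, SE 0.06). RIPK4, a kinase of epidermal differentiation, had 60.7, 55.3 and 57.3 against 84.2, 82.2 and 81.6 CPM (0.52, SE 0.05). C2CD2, a C2 domain protein, was at 0.31 (SE 0.05), and RCAN1, an inhibitor of calcineurin, at 0.70 (SE 0.07).

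The 14 members of metabolism and transport had a median log2 fold change of 0.41, all above 0, with 4 called higher (CBS, HLCS, TRPM2 and GART). HLCS, the ligase that attaches biotin to carboxylases, had 35.8, 36.1 and 34.2 CPM in A431CT and 58.0, 56.8 and 61.1 CPM in Dsg2KO libraries (0.73, SE 0.06). GART, the trifunctional enzyme of purine synthesis, had 113, 123 and 122 CPM in A431CT and 175, 181 and 173 CPM in Dsg2KO libraries (0.56, SE 0.04). GART and SON start head to head with overlapping starts, and their values were 0.56 and 0.31. The 13 members of protein folding and turnover had a median of 0.41, and 3 were called higher (PSMG1, UBE2G2 and LTN1). UBE2G2, an E2 enzyme of ER-associated degradation, was at 106, 109 and 111 against 163, 167 and 167 CPM (0.61, SE 0.04). SUMO3, a ubiquitin-like modifier, had 0.46 (SE 0.04) and CSTB, an inhibitor of cysteine cathepsins, 0.32 (SE 0.06).

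Of the 7 surface, receptor and adhesion members, 4 were above 0 and the median was 0.32. ICOSLG, BACE2 and PTTG1IP were called higher. PTTG1IP, a transmembrane partner of securin, was at 136 ± 7.43 against 195 ± 4.79 CPM (SD, n = 3; log2 fold change 0.52, SE 0.05). IL10RB, a shared receptor subunit for interleukin 10, interleukin 22 and type III interferon, had 19, 23 and 11 counts in A431CT and 32, 17 and 13 in Dsg2KO libraries, and its log2 fold change of -0.04 (SE 0.41) has no certain direction.

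The 2 groups with the smallest medians were mitochondria and redox (9 members, median 0.18, 6 above 0) and transcription factors and coregulators (11 members, median 0.20, none called higher). Among the first, ATP5PF and MRPL39 lie before the gap. SOD1, cytosolic superoxide dismutase, had 141, 132 and 121 CPM in A431CT and 171, 172 and 166 CPM in Dsg2KO libraries (0.37, SE 0.05). CBR1, a carbonyl reductase, was at 182 ± 2.95 against 240 ± 10.9 CPM (SD, n = 3; 0.40, SE 0.04), and MRPS6, of the small mitochondrial ribosomal subunit, had 0.30 (SE 0.05). ATP5PO, the other peripheral stalk subunit of ATP synthase on the chromosome, lies after the gap with a log2 fold change of 0.02 (SE 0.13). Its libraries overlap, at 27.0, 30.6 and 22.1 CPM against 22.7, 33.1 and 24.9 CPM.

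Among transcription factors, ETS2 had 125, 121 and 127 CPM in A431CT and 139, 135 and 134 CPM in Dsg2KO libraries. Its libraries did not overlap, but its log2 fold change of 0.13 (SE 0.04) stood at -0.25 from the median of the members. RUNX1 stood at the median with 0.39 (SE 0.06), and BACH1, a repressor of antioxidant genes, at 0.35 (SE 0.07). The 18 members in no role group had a median of 0.31, with 14 above 0 and SIK1B and FP565260.6 called higher. Whether the roles differ was not tested, since the members were chosen from this contrast.

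**Figure D5:**
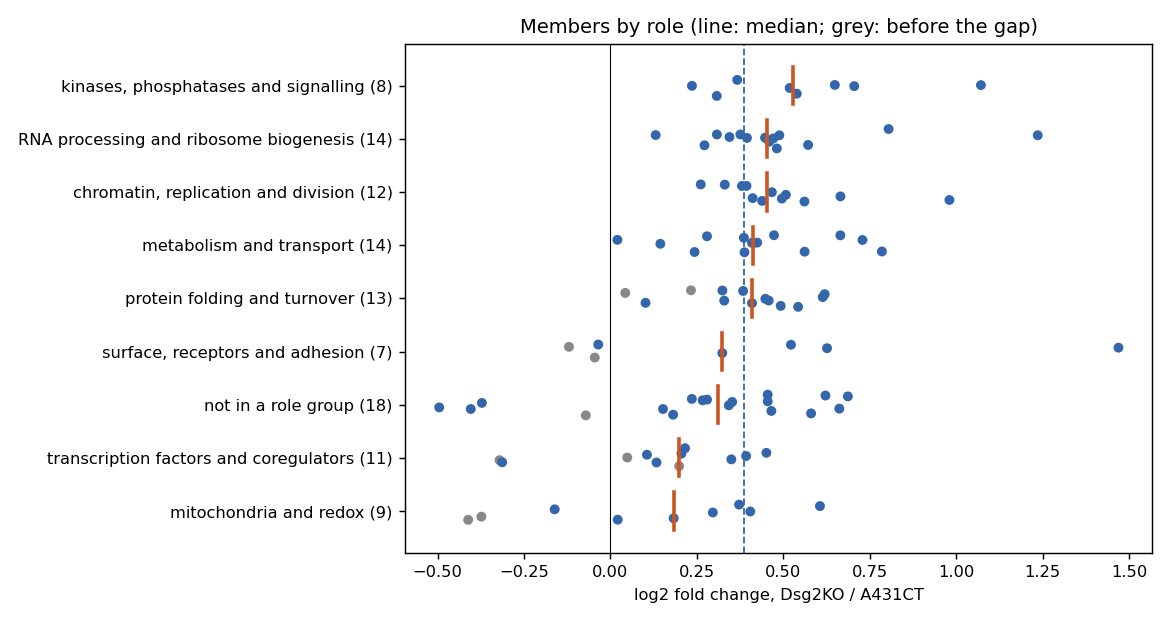
Each point is a member at its log2 fold change (Dsg2KO against A431CT), in rows by role with the number of members in brackets. Orange lines are the medians, the dashed line is the median of all members at 0.39, and grey points lie before the gap. Row medians run from 0.18 for mitochondria and redox to 0.53 for kinases, phosphatases and signalling.

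The medians were also taken by level and by annotation. Members in the lowest, middle and highest level group by mean CPM had medians of 0.27, 0.41 and 0.39, and the 34 members that overlap no annotated gene had a median of 0.40. For 53 members an annotated gene lies on the opposite strand, and reads of the 2 cannot be told apart here. The members with the lowest minimum count were RSPH1 and MRAP with 10 counts in their lowest library, followed by IL10RB, ICOSLG and WRB-SH3BGR with 11 each. Just outside the minimum were FP565260.3 with 9, TSPEAR with 8 and CLDN14 with 7 counts in theirs.

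With GENCODE 44 starts, 7 pairs of members start within 1000 bases of each other on opposite strands. ATP5PF and GABPA are not among them, since their GENCODE starts overlap by 1103 bases. Their RefSeq start sites, 82 bases apart, overlap in the same way. Of the 7 pairs, both genes of 5 had log2 fold changes of at least 0.2. In the pair of PIGP, a subunit of the enzyme that starts GPI anchors, and TTC3, an E3 ubiquitin ligase, the log2 fold changes were 0.02 (SE 0.19) and 0.45 (SE 0.05), and the start sites lie 56 bases apart. The 5.89 CPM of PIGP in the second A431CT library was its highest value and its other libraries had 4.18 to 5.01 CPM. In the pair of HSF2BP and RRP1B the values were 0.98 (SE 0.30) and 0.46 (SE 0.04). The pair of RSPH1 and SLC37A1 had values of -0.37 (SE 0.38) and 0.28 (SE 0.11).

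Many members encode 1 subunit of a complex whose other subunits are encoded elsewhere, and those partners were not part of the choice of members. Of 75 listed partners, 72 were tested with edgeR, and OIP5, PIGY and IL10RA were not. Their median log2 fold change was -0.03, 32 were above 0, none was called higher and 2 were called lower, against 2.99% and 3.03% of all tested genes. At an unadjusted p under 0.05, 15 partners were higher and 21 lower with edgeR, against 19.5% and 20% of all tested genes. With DESeq2 they were 11 and 18, against 11.8% and 12.5% of its genes, and it also called none higher and 2 lower. With the edgeR adjusted p-value alone, 7 rose and 16 fell, against 14.3% and 15.3% of all tested genes. ATP5PD, of the ATP synthase stalk, fell from 75.5 ± 4.43 to 52.9 ± 3.62 CPM (SD, n = 3; log2 fold change -0.51, SE 0.06, edgeR adjusted p = 2.27e-05). SEM1, a subunit of the proteasome and of TREX-2, fell from 54.0 ± 5.57 to 37.8 ± 2.83 CPM (SD, n = 3; log2 fold change -0.51, SE 0.08, edgeR adjusted p = 1.69e-04). The 2 calls rest on values close to the minimum of 0.5 and depend on single libraries. Without A431CT library 2 or without Dsg2KO library 3 none was called, and without A431CT library 1 or Dsg2KO library 2 there were 4.

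Within complexes, members and partners had different values. CCT8, a subunit of the TRiC/CCT chaperonin, was at 114 ± 6.44 against 143 ± 8.08 CPM (SD, n = 3; log2 fold change 0.33, SE 0.05), while its 7 partners had a median of 0.08, and CCT6A, the one with the highest level, had 0.08 (SE 0.04, edgeR adjusted p = 0.109). Of 13 ATP synthase partners 12 were below 0, with a median of -0.15, and ATP5F1B, a catalytic subunit, had -0.02 (SE 0.04, edgeR adjusted p = 0.784). Their chromosome 21 subunits had -0.37 for ATP5PF and 0.02 for ATP5PO. CHAF1B, of the chromatin assembly factor CAF-1, had 0.50 (SE 0.06). Its partner CHAF1A had 0.02 (SE 0.04), and RBBP4 fell with -0.35 (SE 0.04, edgeR adjusted p = 3.22e-05). For U2AF1 and its partner U2AF2 the log2 fold changes were 0.13 (SE 0.11) and -0.30 (SE 0.04, edgeR adjusted p = 2.56e-05), and the row of U2AF1 is uncertain because of its copy. PWP2 had 1.24 on few counts. Its 5 partners had a median of 0.12 with 4 above 0, and WDR3, of the same processome complex, rose with 0.33 (SE 0.04, edgeR adjusted p = 3.49e-05). PSMG1, a proteasome assembly chaperone, had 0.62 (SE 0.09), and its 4 partners had a median of 0.06, with PSMG3 at 0.12 (SE 0.06).

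For most of the other complexes the partner with the highest level is given. NDUFV3, an accessory subunit of respiratory complex I, had a log2 fold change of 0.61 (SE 0.09) and NDUFV1, of the same module, -0.08 (SE 0.05), with a median of -0.03 over 3 partners. SUMO3 had 0.46 and SAE1, of the SUMO-activating enzyme, -0.05 (SE 0.04), with a median of -0.02 over 5 partners. TRAPPC10, of the TRAPPII tethering complex, had 0.41 (SE 0.07), and TRAPPC3 fell with -0.33 (SE 0.05, edgeR adjusted p = 3.87e-04), while 6 of its 8 partners were above 0 with a median of 0.19. N6AMT1 had 0.80 and TRMT112 fell with -0.22 (SE 0.05, edgeR adjusted p = 0.00476). MCM3AP had 0.45 and CETN2, of TREX-2, fell with -0.18 (SE 0.05, edgeR adjusted p = 0.0197), with a median of -0.12 over 5 partners.

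For VPS26C, of the retriever sorting complex, and VPS29 the values were 0.49 (SE 0.06) and -0.13 (SE 0.06). WDR4, which methylates tRNA with METTL1, had 0.48, and METTL1 had 0.0055. GET1, a receptor subunit for tail-anchored proteins, had 0.10 (SE 0.09) and UBL4A -0.10 (SE 0.04). Of its 5 partners 3 were above 0, with a median of 0.06, and GET4 rose with 0.41 (SE 0.11, edgeR adjusted p = 0.0081). Among members near 0, GABPA had 0.05 with GABPB1 at -0.07 (SE 0.06). IL10RB, on few counts, had -0.04 (SE 0.41) with no certain direction, and IFNLR1 had -0.15 (SE 0.11). PIGP was at 0.02 (SE 0.19), and PIGQ rose with 0.45 (SE 0.07, edgeR adjusted p = 1.61e-04), while the 5 tested partners of PIGP had a median of 0.0042.

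The 10 genes set aside by name were read in the same fit. IFNAR1, of the type I interferon receptor, had a log2 fold change of 0.24 (SE 0.05), LSS, of sterol synthesis, 0.46 (SE 0.05) and PFKL, the liver-type phosphofructokinase, 0.38 (SE 0.05). IFNGR2, of the interferon gamma receptor, had 0.72 (SE 0.10). MX1 and MX2, interferon-induced antiviral GTPases, were further from the members' median with 1.22 (SE 0.07) and 1.99 (SE 0.18). ABCG1, COL6A1, COL6A2 and COL18A1 had too few counts to be tested.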

How the data were processed

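RNA-seq was analysed from 3 A431CT and 3 Dsg2KO libraries. The authors trimmed and aligned the paired-end reads to GRCh38 with CLC Genomics Workbench 23. The deposited read counts per gene are whole numbers and not normalized. The annotation and the strand setting are not given in the sources used here. All 6 columns were matched to a sample. Library totals lay between 12845719 and 16255692 counts, and replicates of one condition differed with chi-square values of 2.63 to 4.16 per degree of freedom.

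Counts were fitted in R 4.3.3 with edgeR 4.0.16 (TMM, filterByExpr with a minimum of 10 counts, quasi-likelihood F test, no covariate) and Benjamini-Hochberg adjustment over 12857 genes. The 2 limits for a call were 0.05 for the adjusted p-value and 0.5 for the size of the log2 fold change. In simulated data for this comparison, 12902 genes were tested and only the limit of 0.05 for the adjusted p-value was applied. With it, 98.5% of 132 genes changed by 1 or 2 on the log2 scale and 85.1% of 67 changed by 0.5 were recovered. Of the unchanged genes, 13 passed. The limit for the fold change was not applied there and every simulated gene had the same dispersion, so the rate for calls with both limits was not measured. The members, role groups, partners and tests were chosen with earlier results of these data known.

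Genes were named by a rule: members at least 0.5 from the median, the 3 members of highest CPM per role, the 5 nearest the median among the 30 of highest CPM, the lowest minimum counts, the 10 excepted genes, and partners that were called or had the highest level in a complex. One partner is not reported here. Other genes named, such as NDUFV3, WDR4, RCAN1, BACH1, ATP5PO, CHAF1B, PSMG1 and head-to-head partners, were chosen after their values were seen. Symbols were placed with GENCODE 44. Copies were searched by aligning transcripts to chromosome 21 with minimap2 2.31, with at least 98% identity over at least 50% of the transcript. Promoter windows came from RefSeq (GRCh38.p14), with 77 of 106 members matched. Python 3.11.15 and pandas 2.3.3 made the summaries. Alternatives were RLE size factors, total counts only, TMM without chromosome 21, other count filters, DESeq2 1.42.0, a replicate block, other fold change minimums and each library left out.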

Additional observations from a re-analysis of the deposited data

Results flagged for a closer look

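LRRC3, a leucine-rich repeat membrane protein at chr21:44455510-44462196, lies on chromosome 21 but has too few counts to be a member. It had 0, 1 and 1 counts in A431CT libraries and 12, 13 and 17 in Dsg2KO libraries. It was marked because it lies outside the members and its level in Dsg2KO cells was above that of the control libraries. Against a floor of 3 counts per library the level in Dsg2KO cells was at least 3.85-fold that of A431CT cells.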

How the results depend on the processing

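The median of the members, 0.39, was 0.40 with no low-count filter, 0.41 with total counts only, 0.40 for members overlapping no annotated gene, 0.41 for those after the gap and -0.058 for those before it (the last 2 chosen after seeing the data), and 0.38 to 0.40 with 1 library left out. All genes called, 775, became 3802 with no fold change minimum, 250 with a minimum of 1 and 686 to 795 with 1 library left out. Members called higher, 25, became 72, 3 and 25 to 28. Members that left the shift, 13, became 6 with at least 50 counts, 6 overlapping no annotated gene, 1 at a distance of 1, 8 after the gap, 6 with at least 100 counts and 11 to 14 with 1 library left out. Partners called, 2, became 0 with total counts only, 23 with no minimum, 0 with a minimum of 1, and 0 to 4 with 1 library left out. The direction of 4 members turned with 1 library left out. CRYZL1 was 0.11 without Dsg2KO library 1, and its range was -0.46 to 0.11. IL10RB was 0.04 and 0.17 without A431CT library 1 and 2, and 0.12 and 0.23 without Dsg2KO library 2 and 3, in a range of -0.54 to 0.23. ATP5PO, 0.02, was -0.095 without A431CT library 3 and -0.16 without Dsg2KO library 2, and PIGP, 0.02, was -0.03 without A431CT library 1 and -0.08 without A431CT library 3. Of the other values for the genes named by the rule, 490 kept direction and side of the threshold, 5 became stronger and 7 weaker.

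Replicate numbers did not pair the samples, with correlations of the deviations of -0.0027, 0.01 and 0.05. With the replicate block 769 genes were called and the median of the members was 0.39, and the block moved no count by over 1.5 times. Depth limits ICOSLG, HSF2BP, WRB-SH3BGR, MRAP, RSPH1, CRYZL1 and IL10RB, whose SE exceeds 0.3. Strand, copies and the source of the shift were not resolved by these counts.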

Other observations

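Some chromosome 21 rows below the minimum had few counts, or counts in only some of the libraries. IFNAR2, a subunit of the type I interferon receptor, had 17 counts in Dsg2KO library 1 and 0 in the other 5, while the row AP000295.1 had between 503 and 926 counts in every library. ITSN1, an endocytic scaffold, had 0, 0 and 17 counts in A431CT and 75, 9 and 135 in Dsg2KO libraries. GATD3A had between 3 and 12 counts in the 6 libraries, and GATD3B, a member, between 24 and 44. SMIM11A had at most 13 counts and SMIM11B between 200 and 342. SH3BGR had 16, 29 and 17 counts in A431CT and 19, 8 and 5 in Dsg2KO libraries, and the row WRB-SH3BGR had 11, 14 and 41 against 24, 55 and 51. How reads were shared between such rows was not tested.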
